A study of Homo sapiens with 6 samples.

Results

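YAP1 and WWTR1 (the gene of TAZ), their DNA-binding partners TEAD1 and TEAD4, and 6 genes that YAP and TAZ are known to switch on (CCN1, CCN2, ANKRD1, AMOTL2, AJUBA and LATS2) were examined in UE7T-9 cells that overexpressed SHC4. The 10 genes were taken by name, not by their values, from the 28181 genes of the deposited files. Earlier results of these data were known when they were chosen. All 10 were among the 23040 genes tested. UE7T-9 is an immortalized human bone marrow mesenchymal stem cell line. RNA of 3 UE7T-9 SHC4 libraries and 3 UE7T-9 Cont libraries was sequenced. UE7T-9 SHC4 cells were infected with a lentivirus that carried SHC4, an adaptor protein of the SHC family, and their genotype is labelled SHC4-OE. UE7T-9 Cont cells are labelled Nontarget with the genotype WT, whereas the study's methods describe a control line that carried a green fluorescent protein vector. The labels call the libraries biological replicates and the design text speaks of clones, but neither says whether the libraries of a group came from separate infections, clones or cultures, so the tests measure only the spread between these libraries.

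In the Hippo pathway, the kinases STK3 and STK4 activate LATS1 and LATS2, which phosphorylate YAP and TAZ and keep them out of the nucleus. When this brake is released, for example in spread cells on a stiff matrix, YAP and TAZ enter the nucleus, bind TEAD factors and raise the transcription of matrix and cytoskeletal genes. In mesenchymal stem cells, YAP and TAZ are known as sensors of matrix stiffness that take part in the choice between bone and fat lineages. YAP and TAZ are controlled largely through phosphorylation and location, which RNA sequencing does not measure.

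The letters through which TEAD factors are known to bind were looked for in the 250 bases before the annotated start of each gene (RefSeq, GRCh38.p14). The motif searched was GGAATG, or CATTCC for the other strand. Promoter entries were matched by symbol for 7 of the 10 genes (YAP1, WWTR1, CCN2, ANKRD1, AMOTL2, AJUBA and LATS2), with 10 windows in all. A match was present in 5 of the 10 windows (50%), compared with 11.9% of the 35116 promoter windows in the table. CCN2 had 3 matches, a number that 0.0826% of all windows reached, and ANKRD1 had 2, which 0.94% of all windows reached or passed. YAP1, AMOTL2 and AJUBA had 1 match each, and the windows of WWTR1 and LATS2 held none. A further window of AMOTL2 (chr3:134375418-134375667) and of AJUBA (chr14:22982552-22982801), each at another annotated start, held none either. Another 6 of 14 windows of other YAP/TAZ target genes (42.9%) and 6 of 39 windows of Hippo kinases and regulators (15.4%) held a match. The window of PTPN14, which held 1 match, is in both lists and was counted in each. The AP-1 motif (TGACTCA, or TGAGTCA for the other strand) and the CArG box of the serum response factor were in none of the 10 windows, and were in 4.2% and 1.16% of all windows. The windows of CCN2 and ANKRD1 are shown because these genes held the most matches and had the lowest fold changes of the 10, and that of AMOTL2 because it held a match and had a fold change above 0. Capitals mark the TEAD motif on either strand. All 3 windows read from 5′ to 3′ on the minus strand, at chr6:131951373-131951622 for CCN2, chr10:90921088-90921337 for ANKRD1 and chr3:134374448-134374697 for AMOTL2.
CCN2: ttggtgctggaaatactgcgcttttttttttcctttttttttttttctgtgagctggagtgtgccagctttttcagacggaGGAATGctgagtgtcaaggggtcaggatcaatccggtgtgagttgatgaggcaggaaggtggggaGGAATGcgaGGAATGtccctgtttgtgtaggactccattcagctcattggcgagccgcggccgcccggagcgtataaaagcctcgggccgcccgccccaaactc
ANKRD1: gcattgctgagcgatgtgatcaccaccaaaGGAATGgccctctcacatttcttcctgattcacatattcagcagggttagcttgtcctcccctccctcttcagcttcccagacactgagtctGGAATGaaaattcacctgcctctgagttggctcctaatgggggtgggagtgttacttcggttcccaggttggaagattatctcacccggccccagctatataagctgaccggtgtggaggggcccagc
AMOTL2: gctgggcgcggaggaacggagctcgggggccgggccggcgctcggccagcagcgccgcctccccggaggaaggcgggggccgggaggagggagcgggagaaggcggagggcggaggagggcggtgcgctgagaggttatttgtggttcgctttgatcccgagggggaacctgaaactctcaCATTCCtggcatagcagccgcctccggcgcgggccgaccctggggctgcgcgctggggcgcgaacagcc

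**Figure D1:**
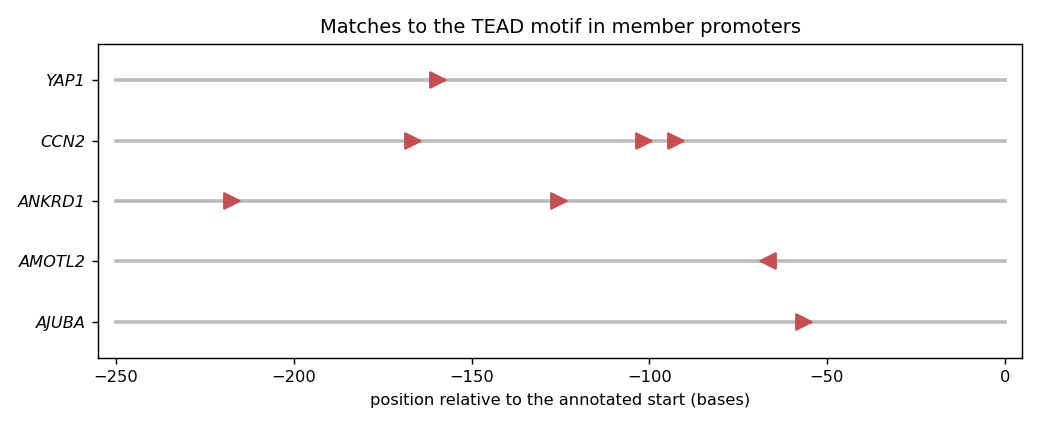
Matches to the TEAD motif in the 250 bases before the start of the 5 genes that had one. The x axis gives the position relative to the annotated start in bases, and triangles point right for the strand of the gene and left for the other strand. CCN2 shows 3 matches and ANKRD1 shows 2.

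These matches describe letters in a window and were not measured as bound sites. In CCN2 they began 169, 104 and 95 bases before the start, in ANKRD1 220 and 128 bases before it, and in AMOTL2 69 bases before it.

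SHC4 itself was checked first. Its normalized count, which is the read count divided by 1 size factor per library, was 56.5, 157 and 130 in replicates 1, 2 and 3 of UE7T-9 Cont (the controls) and 134870, 119166 and 155006 in those of UE7T-9 SHC4 (the SHC4 libraries), the order kept for every gene that follows. Depth ranged from 18144993 to 27721397 reads, and each of the 10 genes had between 226 and 22294 reads in a library. UE7T-9 Cont replicate 1 stood closer to UE7T-9 SHC4 replicate 1 (Pearson's r of log2 values 0.975 across genes) than to UE7T-9 Cont replicates 2 (0.967) and 3 (0.962). Each named gene whose adjusted p dropped under 0.05 without UE7T-9 Cont replicate 1 is therefore given both ways. In that fit, which omits the control most like an SHC4 library, 5.68% of the genes tested had an adjusted p under 0.05 (limma). Mesenchymal markers were abundant, with a summed normalized count of 172070 to 586153 in the controls and 338496 to 523246 in the SHC4 libraries. All 6 mesenchymal markers were above 1000 in every library, and their sum was highest in replicate 1 of both groups (586153 and 523246). PDGFRB, a growth factor receptor of mesenchymal cells, was called higher by DESeq2 (log2 fold change 1.23, adjusted p = 0.0171) and not by limma (1.38, adjusted p = 0.162). Its counts were 4122, 1487 and 1678 against 6634, 5281 and 5178, without overlap, as for 9.13% of all genes tested in this direction. THY1 had a limma log2 fold change of 1.15 (unadjusted p = 0.0140, adjusted p = 0.234), and its first control lay inside the range of the SHC4 libraries. Without that control, limma gave PDGFRB 1.84 (adjusted p = 0.000698) and THY1 1.67 (adjusted p = 0.00167). From all 6 libraries, 5 of the 6 markers had limma log2 fold changes above 0 and 1 below, NT5E at -0.36 (adjusted p = 0.508). ENG was at 0.15 (adjusted p = 0.767), COL1A1 at 0.41 (adjusted p = 0.799) and COL1A2 at 0.61 (adjusted p = 0.589). The part of these markers in the values below was not tested. The 4 hematopoietic markers in the files summed to 109 to 142, the 4 endothelial markers to 49.2 to 96.7 and the 4 epithelial markers to 12.5 to 34.3 over the 6 libraries. The highest values in these lists were 88.3 for CD14, 52.7 for CD34, 65.3 for VWF, 38.4 for PECAM1 and 17.6 for CDH1. PTPRC reached at most 6.82 and CDH5 at most 1.18, with 0 in 1 and 4 of the 6 libraries. PECAM1 had 7.80, 11.8 and 12.8 against 9.67, 36.6 and 38.4 (limma log2 fold change 1.12, adjusted p = 0.407). It was the 1 endothelial marker of 3 tested above 0, with TEK at -1.46 (adjusted p = 0.397) and VWF at -0.03. ESRP1 had 6.82, 15.3 and 11.8 against 1.76, 5.83 and 3.49 (-1.42, adjusted p = 0.302). Of 4 epithelial markers tested, 3 lay below 0 and 1 above, KRT14 at 1.73 (adjusted p = 0.461).

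None of the 10 genes passed the test. CCN1, CCN2 and ANKRD1, widely used readouts of YAP and TAZ activity, had mean differences of -22.1%, -27.9% and -43.0% in UE7T-9 SHC4 relative to the controls, but the groups overlapped in each case. For WWTR1 and TEAD1 every SHC4 library lay below every control, with mean differences of -17.3% and -10.9%. Groups did not overlap for 19.3% of all genes tested in either direction, and for 10.2% in this one. YAP1, LATS2, AJUBA and AMOTL2 had log2 fold changes between -0.07 and 0.13, and TEAD4, at 0.34, varied widely among the controls. The rule for a call was an adjusted p under 0.05 in limma together with a change of more than 1 on the log2 scale in either direction. By that rule 0.0608% of all genes tested were called (14 of 23040), so a count of 0 among 10 genes does not set these genes apart from the background. DESeq2, which called 2.2% of the genes to which it gave an adjusted p, and edgeR also called 0 of the 10. At an unadjusted p below 0.05, CCN2 was the only one of the 10 (14.4% of all genes tested, and 6.96% in the lower direction). The median log2 fold change of the 10 genes was -0.12 and that of all genes tested was -0.004, with 4 of the 10 above 0 and 6 below. In bulk RNA of this kind, a smaller share of cells that express a gene and less RNA of it per cell cannot be told apart.

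**Figure D2:**
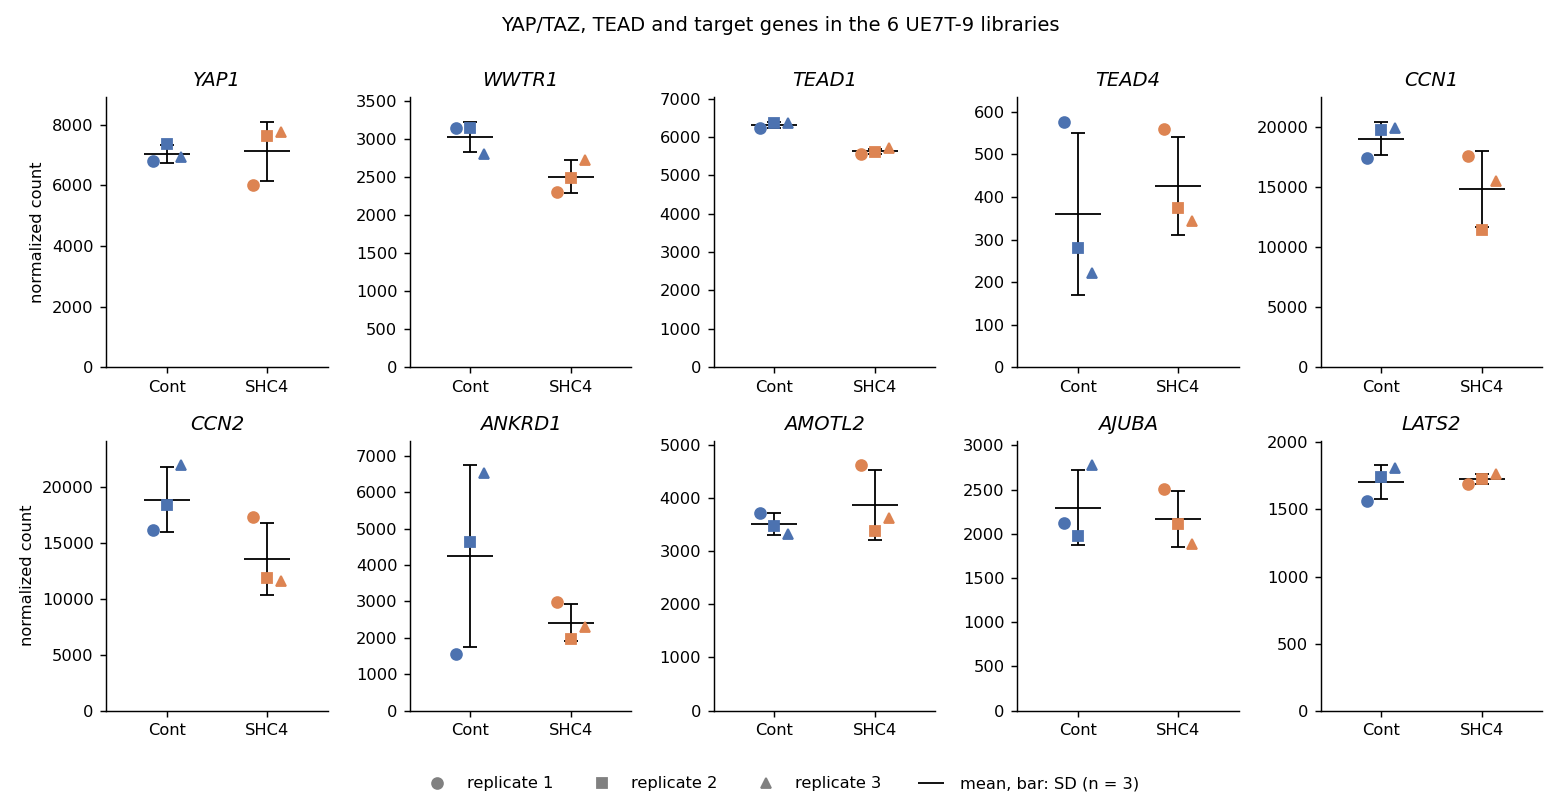
Normalized counts of the 10 genes (y axis, linear and starting at 0) in UE7T-9 Cont and UE7T-9 SHC4. Points are libraries, shaped by replicate number, and the black line and bar give the mean and SD of 3 libraries. WWTR1 and TEAD1 show groups that do not overlap, and ANKRD1 shows a UE7T-9 Cont group spread from 1566 to 6524.

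YAP1 (ENSG00000137693, chr11:102110461-102233423, plus strand, GRCh38) encodes the coactivator that LATS kinases inhibit. It had normalized counts of 6795, 7380 and 6938 in the controls and 6001, 7616 and 7758 in the SHC4 libraries. The lowest and the highest library both belonged to UE7T-9 SHC4. The means were 7038 ± 305 and 7125 ± 976 (SD, n = 3 each), and the log2 fold change was 0.01 ± 0.15 (SE of the fit, 95% confidence interval -0.32 to 0.34, adjusted p = 0.984). Together with WWTR1, YAP1 had a summed level of 1478 ± 59.1 per kilobase of exon in the controls and 1430 ± 178 in the SHC4 libraries (SD, n = 3 each).

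WWTR1 (ENSG00000018408, chr3:149517235-149736714, minus strand) encodes TAZ, the paralog of YAP. Its counts were 3151, 3142 and 2805 in the controls and 2302, 2493 and 2727 in the SHC4 libraries. All 3 SHC4 libraries lay below all 3 controls, although the nearest pair was only 2805 against 2727. The means were 3032 ± 197 and 2507 ± 213 (SD, n = 3 each), with a log2 fold change of -0.28 ± 0.12 (SE of the fit, 95% confidence interval -0.55 to 0.003, adjusted p = 0.352). Groups failed to overlap in this direction for 10.2% of all genes tested. The exact permutation p was 0.1 for WWTR1, the smallest that 3 against 3 libraries allow. The level of WWTR1 relative to YAP1, both per kilobase of exon, was 0.347, 0.319 and 0.303 in the controls and 0.287, 0.245 and 0.263 in the SHC4 libraries, again without overlap (exact permutation p = 0.1). YAP1 thus gave 74.2% to 76.8% of the YAP1 and WWTR1 level per kilobase in the controls and 77.7% to 80.3% in the SHC4 libraries.

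TEAD1 (ENSG00000187079, chr11:12674591-12944483, plus strand) encodes a DNA-binding partner of YAP and TAZ and was the most abundant TEAD gene per kilobase. It was the steadiest of the 10 genes, with a coefficient of variation of 1.29% in the controls and 1.24% in the SHC4 libraries, compared with a median of 13.7% and 11.4% across 12678 genes whose mean reached 50. Counts of 6222, 6353 and 6373 in the controls stood against 5568, 5604 and 5702 in UE7T-9 SHC4. The gap between the groups was larger than the range within either group. The means were 6316 ± 81.7 and 5625 ± 69.7 (SD, n = 3 each), and the log2 fold change was -0.17 ± 0.12 (SE of the fit, adjusted p = 0.562, exact permutation p = 0.1). The standard error is larger than the gene's own spread gives because limma draws each gene's variance toward that of all genes.

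TEAD4 (ENSG00000197905, chr12:2959330-3040673, plus strand), the other TEAD gene in the group, was the lowest of the 10 genes per kilobase. Its counts of 577, 279 and 222 in the controls and 559, 375 and 345 in the SHC4 libraries were highest in replicate 1 of both groups. The log2 fold change was 0.34 ± 0.33 (SE of the fit, adjusted p = 0.688). Without UE7T-9 Cont replicate 1 it was 0.74 and without UE7T-9 Cont replicate 3 it was 0.05, so the value turned on single control libraries. TEAD4 made up 17.7%, 10.4% and 8.15% of the summed level of the 4 TEAD genes per kilobase in the controls and 18.3%, 14.2% and 13.8% in the SHC4 libraries. The remaining TEAD genes, TEAD2 (log2 fold change 0.28, adjusted p = 0.612) and TEAD3 (-0.20, adjusted p = 0.613), did not pass the test either.

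CCN1 (ENSG00000142871, chr1:85580761-85583962, plus strand) and CCN2 (ENSG00000118523, chr6:131948176-131951373, minus strand) encode secreted matricellular proteins that bind integrins and growth factors. They were the most abundant of the 10 genes, with medians over the 6 libraries of 7129 and 7154 normalized counts per kilobase. CCN1 had counts of 17419, 19776 and 19928 in the controls and 17583, 11424 and 15496 in the SHC4 libraries. Only UE7T-9 SHC4 replicate 1 reached the control range, and it lay just above the lowest control. The means were 19041 ± 1407 and 14835 ± 3132 (SD, n = 3 each), with a log2 fold change of -0.38 ± 0.20 (SE of the fit, 95% confidence interval -0.83 to 0.07, adjusted p = 0.420).

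For CCN2 the counts were 16169, 18400 and 21931 in the controls and 17298, 11873 and 11569 in the SHC4 libraries. The pattern of libraries was that of CCN1, with UE7T-9 SHC4 replicate 1 inside the control range and the other two SHC4 libraries below it. The means were 18833 ± 2906 and 13580 ± 3223 (SD, n = 3 each), and the log2 fold change was -0.49 ± 0.21 (SE of the fit, 95% confidence interval -0.96 to -0.01). limma gave an unadjusted p of 0.0461 and an adjusted p of 0.336. DESeq2 gave -0.47 with an adjusted p of 0.220.

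ANKRD1 (ENSG00000148677, chr10:90912096-90921276, minus strand) encodes an ankyrin repeat protein of the nucleus and the muscle sarcomere. Its counts were 1566, 4636 and 6524 in the controls and 2978, 1970 and 2301 in the SHC4 libraries. UE7T-9 Cont replicate 1 was the lowest of the 6 libraries, whereas the other two controls lay above every library with SHC4. The coefficient of variation was 59.0% in the controls and 21.3% in the SHC4 libraries. The means were 4242 ± 2503 and 2416 ± 513 (SD, n = 3 each), with a log2 fold change of -0.60 ± 0.44 (SE of the fit, 95% confidence interval -1.59 to 0.38, adjusted p = 0.565). Without UE7T-9 Cont replicate 1 it was -1.21 with an adjusted p of 0.0121 in limma. ANKRD1 was the 1 gene of the 10 called in that fit, in which 3.06% of all genes were called and 5.68% had an adjusted p under 0.05 at any fold. Leaving out UE7T-9 Cont replicate 3 gave -0.18.

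**Figure D3:**
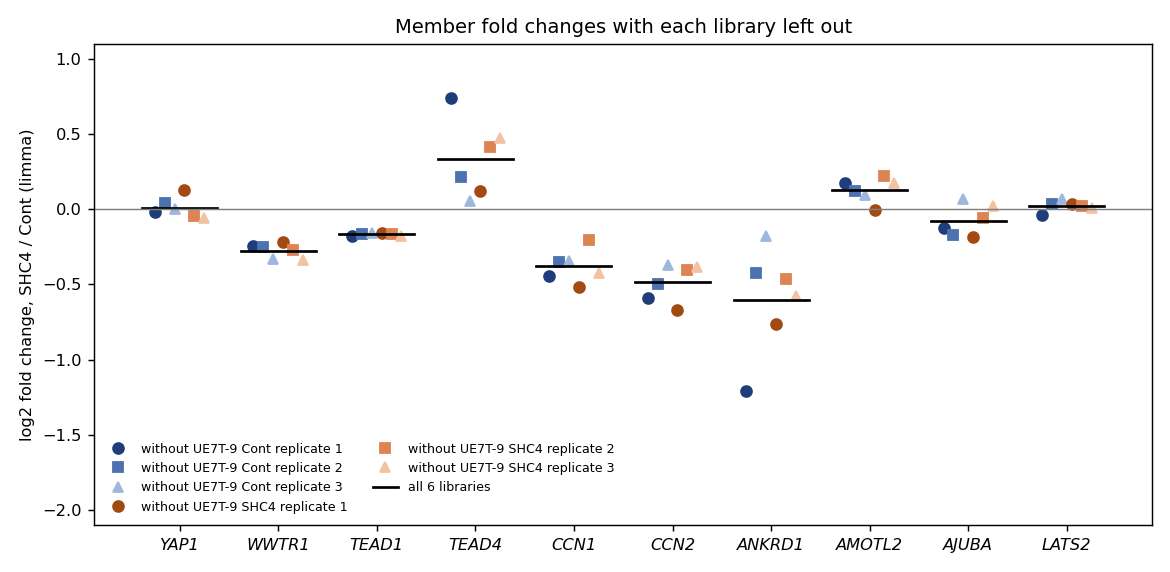
Log2 fold changes (y axis, SHC4 over Cont) of the 10 genes from all 6 libraries (black line) and from the 5 that stay when 1 is omitted (points). ANKRD1 moves between -1.21 and -0.18 and TEAD4 between 0.05 and 0.74, whereas WWTR1 stays between -0.34 and -0.22.

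Of the remaining target genes, AMOTL2 and LATS2 are themselves regulators that hold YAP and TAZ back. AMOTL2 (ENSG00000114019, chr3:134355874-134375479, minus strand) encodes an angiomotin that binds YAP and keeps it at cell junctions. It had counts of 3723, 3471 and 3329 in the controls and 4616, 3374 and 3624 in the SHC4 libraries, so that UE7T-9 SHC4 replicate 1 was the highest library and the other two lay within the control range. The log2 fold change was 0.13 ± 0.15 (SE of the fit, adjusted p = 0.729). In UE7T-9 SHC4 replicate 1, AMOTL2 gave 62.2% of the summed angiomotin level per kilobase, compared with 53.2% to 54.6% in the controls and 48.0% and 51.8% in the other two SHC4 libraries.

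LATS2 (ENSG00000150457, chr13:20973032-21061547, minus strand) encodes a kinase that inhibits YAP and TAZ and closes a feedback loop. Counts of 1565, 1739 and 1810 in the controls and 1689, 1728 and 1765 in the SHC4 libraries gave the narrowest interval of the 10 genes, with a log2 fold change of 0.02 ± 0.11 (SE of the fit, 95% confidence interval -0.24 to 0.28, adjusted p = 0.951). All 3 SHC4 libraries lay inside the control range. LATS2 was more abundant per kilobase than LATS1 in every library, at 70.6% to 75.1% of their sum in the controls and 73.0% to 76.5% in the SHC4 libraries.

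AJUBA (ENSG00000129474, chr14:22971174-22982642, minus strand) encodes a LIM protein that binds LATS kinases. It had counts of 2121, 1980 and 2776 in the controls and 2507, 2109 and 1889 in the SHC4 libraries. The groups overlapped over most of their range, and the log2 fold change was -0.07 ± 0.16 (SE of the fit, adjusted p = 0.873).

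Ordered by median normalized count per kilobase over the 6 libraries, CCN2 and CCN1 were followed by ANKRD1 (1334), YAP1 (1137), AMOTL2 (593), TEAD1 (580), AJUBA (354), WWTR1 (329), LATS2 (311) and TEAD4 (158). Neighbours in this order whose ranges did not overlap were CCN1 and ANKRD1, YAP1 and AMOTL2, TEAD1 and AJUBA, and LATS2 and TEAD4. All other neighbours overlapped, so the order of CCN2 and CCN1, for example, is not fixed by these libraries.

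The mean log2 value of CCN1, CCN2 and ANKRD1 was 12.89, 13.54 and 13.79 in the controls and 13.24, 12.65 and 12.86 in the SHC4 libraries. UE7T-9 SHC4 replicate 1 thus lay between the controls, and UE7T-9 Cont replicate 1 lay among the SHC4 libraries. Over 12668 genes with a mean of at least 50 outside the group, the genes whose log2 values followed this mean most closely were TRIM26 (Pearson's r 0.994 over 6 libraries), FTSJ3 (0.991), KIFC3 (0.990), ADPRS (0.988) and TXNRD1 (0.988). With 6 points and 12668 genes these values only rank the genes.

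The 3 other CCN genes tested had log2 fold changes above 0, unlike CCN1 and CCN2. CCN3, which encodes a matricellular protein often described as an antagonist of CCN2, had counts of 1124, 1402 and 1414 in the controls and 2267, 3955 and 3955 in the SHC4 libraries. All SHC4 libraries lay above all controls, as for 9.13% of all genes tested. The log2 fold change was 1.33 in limma (standard error 0.22, with 0.0812 as adjusted p), while DESeq2 gave 1.37 (adjusted p = 7.54e-06), so CCN3 rose by the call of DESeq2 but not by that of limma. Without UE7T-9 Cont replicate 1 the limma adjusted p was 0.0174, and without UE7T-9 SHC4 replicate 1 it was 0.0253. It was 0.409 and 0.176 without control replicates 2 and 3, and 0.441 and 0.382 without SHC4 replicates 2 and 3. Per kilobase, CCN3 stood at 0.0608, 0.0667 and 0.0564 of CCN2 in the controls and at 0.115, 0.292 and 0.299 in UE7T-9 SHC4 (exact permutation p = 0.1). CCN1 and CCN2 were the more abundant genes in every library.

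CCN5, which encodes a CCN protein that lacks the C-terminal domain, had counts of 2135, 593 and 584 in the controls and 2104, 4648 and 2961 in the SHC4 libraries (log2 fold change 1.76, adjusted p = 0.184). CCN4, a WNT-inducible member, had 2029, 313 and 163 in the controls and 1984, 2046 and 1520 in the SHC4 libraries (log2 fold change 1.96, adjusted p = 0.278). In both genes, UE7T-9 Cont replicate 1 was far above the other controls and inside or near the range of the SHC4 libraries. Without it, the limma log2 fold changes were 2.38 (adjusted p = 0.00259) and 3.01 (adjusted p = 0.000698). From all 6 libraries, DESeq2 gave CCN5 1.55 (adjusted p = 0.214) and CCN4 1.15 without an adjusted p, so it called neither. CCN6 had a mean under the 1 needed for the test. The summed level of the 5 measured CCN genes per kilobase was 16682 ± 1463 in the controls and 14124 ± 1887 in the SHC4 libraries (SD, n = 3 each, exact permutation p = 0.2).

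**Figure D4:**
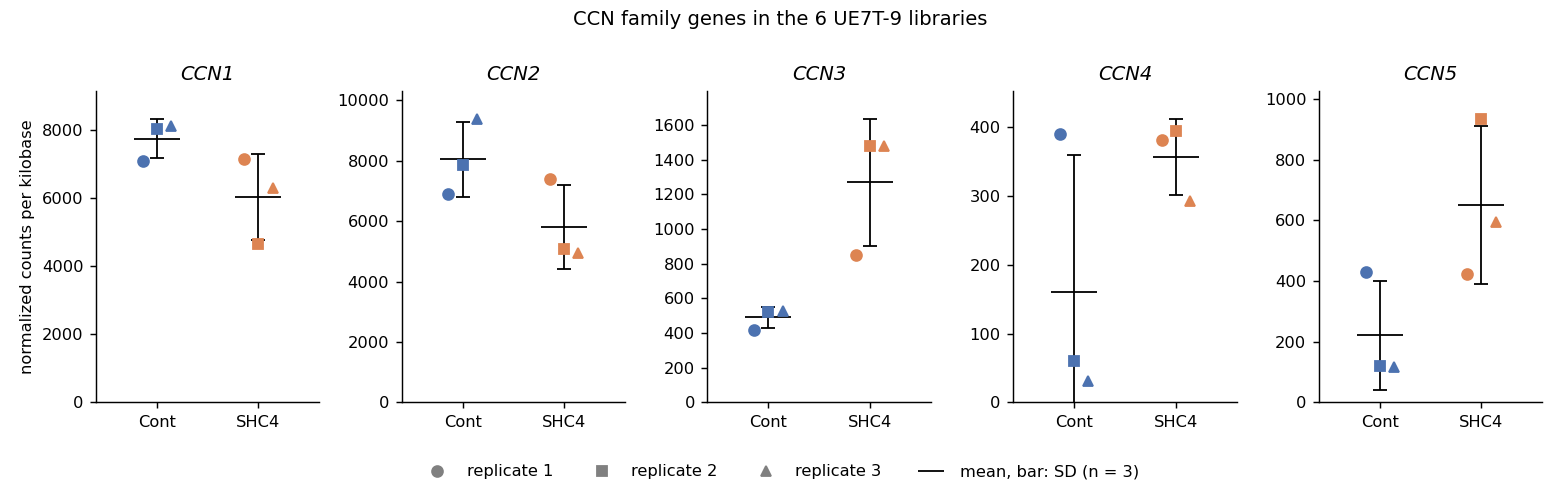
Normalized counts per kilobase of exon (y axis, linear, a scale of its own for each gene) of 5 CCN genes in UE7T-9 Cont and UE7T-9 SHC4. Points are libraries, shaped by replicate number, and the black line and bar give the mean and SD of 3 libraries. CCN3 is higher in all 3 SHC4 libraries, and in CCN4 and CCN5 the first control lies near the SHC4 libraries.

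Of 32 other Hippo kinases and regulators, 31 were tested and none was called by limma. At an unadjusted p below 0.05, 5 were higher and 0 lower, compared with 7.47% and 6.96% of all genes tested. The median log2 fold change of the list was 0.008. The core kinases lay near 0, with STK3 at 0.01, STK4 at -0.19 and LATS1 at -0.07 (adjusted p = 0.985, 0.619 and 0.839). AMOT (0.54, adjusted p = 0.399) and AMOTL1 (0.09, adjusted p = 0.810), the other angiomotin genes, did not pass the test. Without UE7T-9 Cont replicate 1, AMOT was at 0.84 (adjusted p = 0.0424).

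The smallest p of this list belonged to VGLL3, which encodes a vestigial-like cofactor that binds TEAD factors through the surface that YAP and TAZ use. VGLL3 had counts of 7159, 6391 and 6561 in the controls and 9010, 11188 and 10298 in the SHC4 libraries, without overlap. Groups did not overlap in this direction for 9.13% of all genes tested. The log2 fold change by limma was 0.60 (standard error 0.14, adjusted p = 0.162), and DESeq2 gave 0.60 as well (adjusted p = 0.00387), below the fold needed for a call by either tool. DESeq2 gave an adjusted p below 0.05 to 2.06% of its genes in this direction. VGLL4, a related repressor of YAP and TEAD, had counts of 1371, 1226 and 899 against 1350, 1814 and 2059 (log2 fold change 0.58, adjusted p = 0.249). Relative to YAP1 and per kilobase, VGLL3 was at 0.473 ± 0.0466 in the controls and 0.709 ± 0.0458 in the SHC4 libraries, and VGLL4 at 0.144 ± 0.0314 and 0.211 ± 0.0179 (SD, n = 3 each). Neither ratio overlapped between the groups (exact permutation p = 0.1 for each). The 9.13% above is for single genes, and no such share was computed for ratios. The VGLL4 counts themselves overlapped, with UE7T-9 Cont replicate 1 at 1371 and UE7T-9 SHC4 replicate 1 at 1350. YAP1, the divisor, was lowest in that SHC4 library (6001).

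Also at an unadjusted p below 0.05 were WTIP, a LIM protein of the AJUBA family, with counts of 677, 445 and 352 against 825, 823 and 705 (log2 fold change 0.72, adjusted p = 0.206), and WWC3, a KIBRA paralog, with 1926, 1307 and 1331 against 2023, 2327 and 2116 (0.52, adjusted p = 0.217). In both, UE7T-9 Cont replicate 1 was the control nearest to the SHC4 libraries. Without it, limma gave WTIP 0.98 (adjusted p = 0.00934), WWC3 0.71 (adjusted p = 0.0134) and VGLL3 0.64 (adjusted p = 0.0421), all under the fold needed for a call.

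The 19 other YAP/TAZ target genes, of which PTPN14 was also in the Hippo list, lay on both sides of 0. limma called none of them, 2 were higher and 5 lower at an unadjusted p below 0.05 (7.47% and 6.96% of all genes tested), and their median log2 fold change was 0.04. IGFBP3, which encodes a carrier of insulin-like growth factors, had counts of 32056, 22726 and 13546 in the controls and 42503, 54695 and 38931 in the SHC4 libraries (log2 fold change 1.07, adjusted p = 0.201 in limma, and 0.99, adjusted p = 0.0239 in DESeq2). TGFB2, a transforming growth factor ligand, had 345, 354 and 607 against 293, 177 and 175 (-1.01, adjusted p = 0.184 in limma, and -1.02, adjusted p = 0.0302 in DESeq2, which called it lower). RBMS3, an RNA-binding protein, was lower without overlap at 698, 611 and 658 against 541, 434 and 470.5 (-0.45, adjusted p = 0.206 in limma). Groups did not overlap in this direction for 10.2% of all genes tested. Without UE7T-9 Cont replicate 1, limma called IGFBP3 (1.36, adjusted p = 0.0230) and TGFB2 (-1.15, adjusted p = 0.0493). THBS1 was the other gene with an adjusted p below 0.05 in DESeq2 (0.84, adjusted p = 0.0178), while limma gave 0.89 (adjusted p = 0.274).

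**Figure D5:**
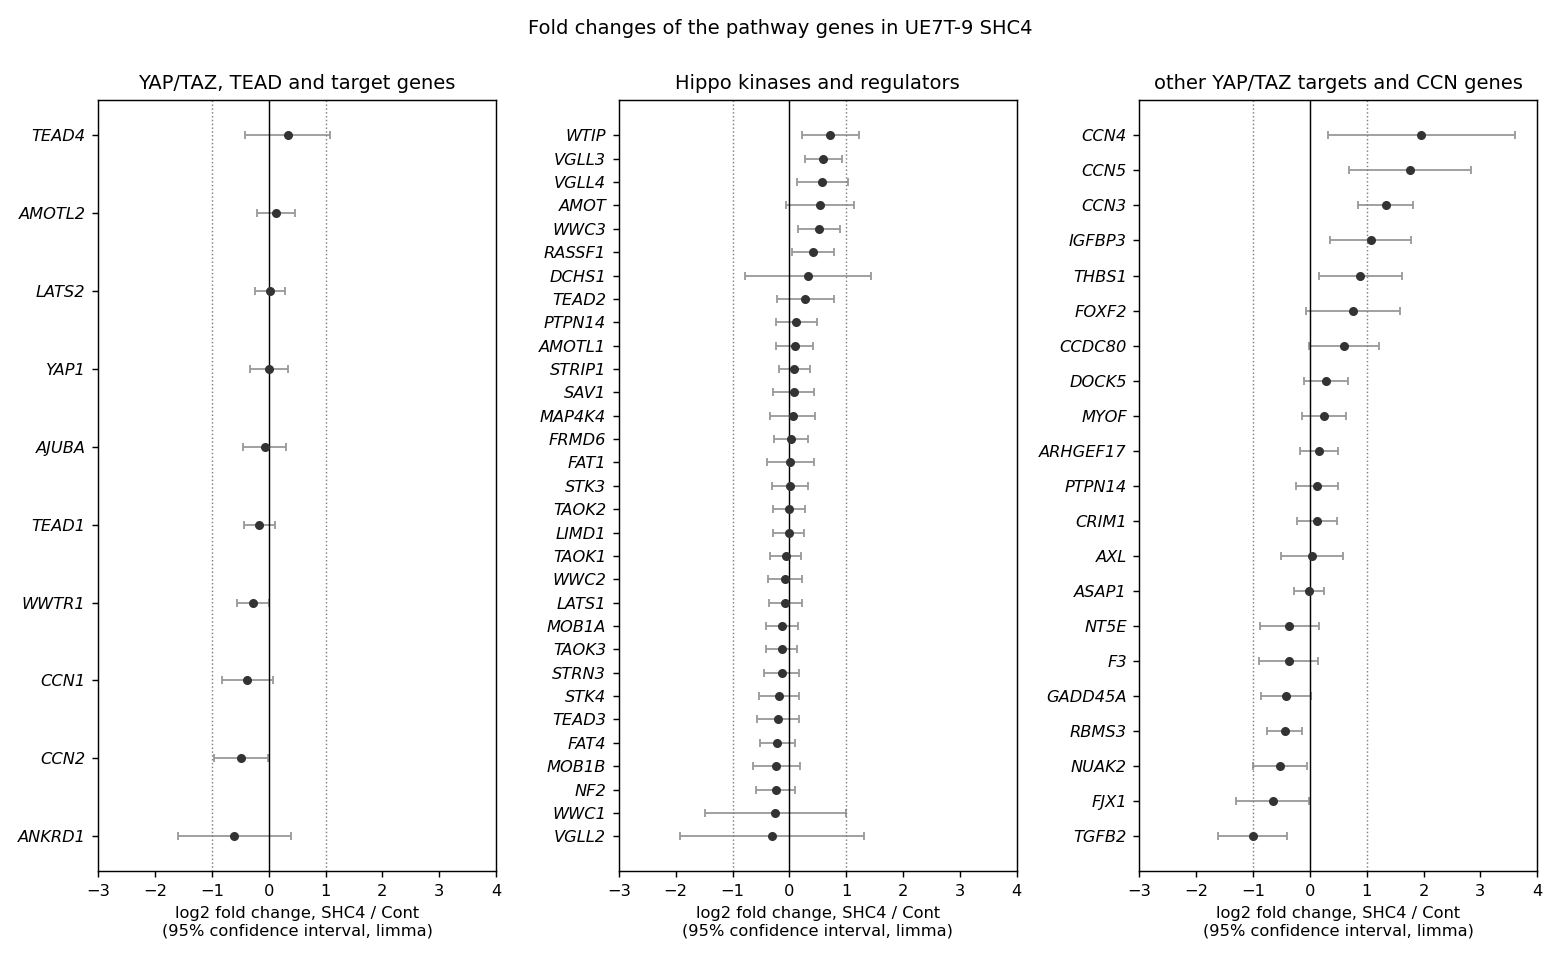
Log2 fold changes (x axis, SHC4 over Cont) with 95% confidence intervals from limma for the 10 genes (left), 31 Hippo kinases and regulators (middle) and other YAP/TAZ targets (all but 1 of 19) with 3 further CCN genes (right). Dotted lines mark 1 and -1. The intervals of 9 of the 10 genes cross 0 and that of CCN2 ends at -0.01.

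Many YAP/TAZ targets are also targets of the serum response factor SRF, which responds to actin. SRF lay at a log2 fold change of 0.05 (adjusted p = 0.901). Of 12 SRF and actin genes, none was called by limma (0.0608% of all genes tested), 2 were higher and 1 lower at an unadjusted p below 0.05 (7.47% and 6.96%). The lower gene was CNN1, which encodes the actin-binding protein calponin, with counts of 323, 173 and 336 against 134, 82.4 and 83.8 (-1.44, adjusted p = 0.122 in limma, and -1.47, adjusted p = 0.000867 in DESeq2, which called it and 2.2% of its genes). Without UE7T-9 Cont replicate 1, limma called it too (-1.30, adjusted p = 0.0493). TAGLN (0.83, adjusted p = 0.331) and MYL9 (0.63, adjusted p = 0.261), which also belong to the contractile apparatus, were the higher ones.

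YAP and TAZ activity is also read from proliferation genes, and 8 of these were examined. The study's own proliferation assay of the control and SHC4 lines showed a slight difference at the earliest time and no significant one later. All 8 had log2 fold changes below 0, as 11600 of the 23040 genes tested did, and their median was -0.41. At an unadjusted p below 0.05, 4 were lower (RRM2, CDK1, BUB1 and PCNA; 6.96% of all genes tested), and the same 4 had a DESeq2 adjusted p below 0.05, which 2.08% of genes did in this direction, though limma called none. The summed normalized count of all 8 genes was 30205 to 37419 in the controls and 25065 to 27032 in the SHC4 libraries. The part of this in the lower values of WWTR1, TEAD1 and CCN2 was not tested.

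Some reads cannot be assigned to 1 gene with certainty, since the strand setting of the counting is not given in the sources used here. Exons of WWTR1 share 795 bases with the antisense gene WWTR1-AS1 (mean normalized count 7.31), and those of CCN2 share 195 bases with the antisense gene AL133346.1 (3.20). The stretches of 50 bases that 1 of the 10 genes shares with any other gene make up at most 8.29% of it, in YAP1 with its antisense gene AP000942.2.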

How the data were processed

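The authors deposited 1 signal value per gene and library, a read count divided by a size factor (normalized count), with Ensembl identifiers. The submitters' processing notes name HISAT2 2.0.5, featureCounts 1.5.0-p3 and DESeq2. The genome build and the strand setting are not given in the sources used here. Every value was a whole multiple of the value of 1 read (100%, tolerance 0.01 reads), so read counts were recovered, with size factors from 0.849 to 1.20 and depths from 18144993 to 27721397. Symbols were found for 28181 identifiers (100%), and positions and exon lengths come from GENCODE 29 on GRCh38. Each length is that of all annotated exons of the gene merged, whichever transcripts were expressed. Shares and orders of different genes per kilobase depend on that length.

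The test was limma 3.58.1 (R 4.3.3, lmFit and eBayes with trend) on log2(value + 1), a scale that understates changes of low genes. It covered 23040 genes, those whose mean reached 1, without a replicate block, and p-values were adjusted by Benjamini-Hochberg over all of them. A call needed an adjusted p under 0.05 and a change of more than 1 on the log2 scale. Alternatives were DESeq2 1.42.0 and edgeR 4.0.16 (quasi-likelihood) on the recovered counts, other scalings, filters and pseudocounts, a replicate block and leaving out each library. All tests were two-sided, and the fits were tested on simulated data. The 10 genes and all lists were chosen with earlier results of these data known. Named were the 10 genes and SHC4, and from each of the 5 lists of pathway and proliferation genes the genes called by limma or DESeq2, up to 3 per direction with the smallest limma p below 0.05, and a fixed set (TEAD2, TEAD3, LATS1, STK3, STK4, VGLL3, VGLL4, AMOT, AMOTL1 and SRF). PCNA and single cell type markers were named after their values were seen. The 5 genes most like the mean of CCN1, CCN2 and ANKRD1 were named by Pearson's r. For 1 gene of the target list, which is included in the counts, values are not reported here.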

Additional observations from a re-analysis of the deposited data

How the results depend on the processing

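The number of genes called over the whole table was 14. It was 355 in DESeq2, 24 with TMM normalization, 28 with library size scaling, 40 without a filter on low values, 39 with a replicate block, and 2 to 706 with 1 library left out, 706 of them without UE7T-9 Cont replicate 1. Among the 10 YAP/TAZ genes the count stayed at 0 in every alternative except without UE7T-9 Cont replicate 1, and ranged from 0 to 1 over the fits with 1 library left out. Among the other YAP/TAZ targets it was 1 in DESeq2 and 0 to 2 with 1 library left out, and among the Hippo regulators it was 0 throughout. With 1 library left out, ANKRD1, CCN4, CCN5, IGFBP3 and TGFB2 had an adjusted p under 0.05 only without UE7T-9 Cont replicate 1. The same held for CNN1, VGLL3, WTIP and WWC3, and the lowest adjusted p of AMOT (0.0424 in limma) also came without that control.

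The replicate numbers were not taken to pair the libraries. Libraries of the same number had deviations that correlated at 0.148, 0.013 and -0.00696 over the 23040 genes tested, and at 0.409, 0.146 and 0.149 over the 12678 genes whose mean reached 50, so the answer depends on the genes used. With the replicate block the 10 genes still gave 0 calls, and CCN3 passed at an adjusted p of 0.0202. Not every library correlated best with its own number, since replicate 2 of the controls correlated best with replicate 3 of UE7T-9 SHC4 (0.517 over the 12678 genes, 0.0992 over all tested). CCN3 also passed without a filter (adjusted p = 0.0455).

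Directions changed only for genes near 0. Library size scaling moved the median of all genes to -0.10, and with it YAP1 to -0.094, LATS2 to -0.081, STK3 to -0.095, AMOTL1 to -0.011 and SRF to -0.057, all 5 above that shift. With 1 library left out, YAP1 ranged from -0.057 to 0.13, AMOTL2 from -0.0028 to 0.22, AJUBA from -0.18 to 0.071, LATS2 from -0.039 to 0.067, LATS1 from -0.15 to 0.019, STK3 from -0.074 to 0.090 and SRF from -0.052 to 0.12. The other named genes kept their direction in the alternatives run, and of 518 values for 37 named genes 13 passed the threshold that the gene had missed. Each of the 10 YAP/TAZ genes had at least 226 reads in every library, and the spread of ANKRD1 and TEAD4 among the controls limits what can be said of them.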
